A study of Mus musculus with 13 samples.

Results

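Monoamine oxidase A and B (Maoa, Maob), the organic cation transporter 3 (Slc22a3) and the plasma membrane monoamine transporter (Slc29a4) were followed in bulk RNA-Seq of mouse midbrain. These 4 genes were chosen by name for their roles in activating the neurotoxin MPTP and in taking up monoamines and organic cations, and they were taken by symbol from the 49315 genes counted. All 4 were among the 19360 genes with enough reads to test, meaning 3 or more libraries with a count of 10 or higher. The study asked how RIPK3, a kinase of necroptosis and inflammation, acts in astrocytes when dopaminergic neurons are poisoned by MPTP. Its animals were male Ripk3fl/fl mice of 8 to 12 weeks with the Aldh1l1Cre transgene (Cre+) or without it (Cre-), the latter being littermate controls. The transgene is a tamoxifen-inducible Cre driven by the promoter of Aldh1l1, an astrocyte gene, so Ripk3 was deleted in astrocytes only where the recombinase was active. Per the labels, every mouse of both genotypes received tamoxifen at 60 mg/kg for 5 days at least 1 week before the experiment, whereas the methods text mentions this treatment for carriers of the transgene. MPTP at 20 mg/kg, or saline in the same way, was then injected once a day for 5 days, and midbrain was taken 3 days after the last injection. There were 3 mice each in the Cre- Saline, Cre+ Saline and Cre- MPTP groups and 4 in the Cre+ MPTP group, with 1 library per mouse.

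MPTP is a protoxin. In the brain, monoamine oxidase B, which is abundant in astrocytes and serotonergic neurons, oxidises it to a dihydropyridinium that becomes MPP+, and MPP+ enters dopaminergic neurons through the dopamine transporter and blocks mitochondrial respiration. Monoamine oxidase A, found mainly in catecholaminergic neurons, prefers serotonin and noradrenaline as substrates, while both forms handle dopamine. The transporters OCT3 (Slc22a3) and PMAT (Slc29a4) are low-affinity, high-capacity carriers that clear monoamines outside the synapse and also accept MPP+. The comparisons below give the RNA of these genes only, not enzyme activity, transport or toxin levels.

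Maoa (ENSMUSG00000025037) and Maob (ENSMUSG00000040147) lie tail to tail on the X chromosome. On the files' build, GRCm38, Maoa spans chrX:16619698-16687818 on the plus strand and Maob spans chrX:16709282-16817366 on the minus strand, with 21.5 kb between them. Slc22a3 (ENSMUSG00000023828) spans chr17:12419972-12507704 on the minus strand and Slc29a4 (ENSMUSG00000050822) spans chr5:142692512-142722490 on the plus strand. All 4 are protein-coding genes, and no other annotated gene overlaps any of them. Promoter sequence from RefSeq on GRCm38.p6 was matched for Maoa, Slc22a3 and Slc29a4. The 250 bases before each transcript start are shown because Sp1-type factors, one of which is in the regulator list described further on, bind GC boxes and are known regulators of monoamine oxidase genes. Capitals mark the GC-box core, GGGCGG or its complement CCGCCC, searched on both strands and counted with overlaps.
Maoa: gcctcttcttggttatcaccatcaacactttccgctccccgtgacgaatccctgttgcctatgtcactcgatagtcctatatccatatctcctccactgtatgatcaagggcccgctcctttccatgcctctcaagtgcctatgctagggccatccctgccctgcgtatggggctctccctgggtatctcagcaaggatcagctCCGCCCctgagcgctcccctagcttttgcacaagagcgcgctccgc
Slc22a3: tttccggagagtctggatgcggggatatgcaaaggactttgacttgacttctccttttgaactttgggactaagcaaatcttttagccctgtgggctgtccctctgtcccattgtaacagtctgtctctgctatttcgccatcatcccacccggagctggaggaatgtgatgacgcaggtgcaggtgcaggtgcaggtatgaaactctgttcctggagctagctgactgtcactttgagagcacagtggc
Slc29a4: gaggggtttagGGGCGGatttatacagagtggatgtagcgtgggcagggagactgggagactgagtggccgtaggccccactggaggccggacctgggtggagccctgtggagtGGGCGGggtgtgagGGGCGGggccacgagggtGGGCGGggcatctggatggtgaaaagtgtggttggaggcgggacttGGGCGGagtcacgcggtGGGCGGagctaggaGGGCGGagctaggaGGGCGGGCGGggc
These windows are chrX:16619448-16619697 on the plus strand, chr17:12507705-12507954 on the minus strand and chr5:142701851-142702100 on the plus strand. The Slc29a4 window precedes a RefSeq transcript start that lies 9.6 kb inside the gene span given above, which begins with another annotated transcript, while the other windows end at the gene's own start. The Slc29a4 window holds 9 cores and is 68.8% GC, the Maoa window holds 1 core at 56.8% GC, and the Slc22a3 window holds 0 at 51.2% GC. Of 32851 RefSeq promoters taken over the same 250 bases, 32.7% hold at least 1 core and 0.16% hold at least 8. The match describes these letters only.

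Depth was 11489150 to 29397278 counts per library, with a median of 24907639. Ripk3 itself was close to the detection limit in this whole-tissue RNA, with 4 to 40 counts per library. It had 0.159 to 0.402 CPM, the count scaled to the size of the library, in Cre- Saline, 0.228 to 0.394 in Cre+ Saline, 0.650 to 1.32 in Cre- MPTP and 0.224 to 0.702 in Cre+ MPTP. These ranges overlap between the genotypes within each treatment, so the deletion in astrocytes cannot be read from them. The tissue carried astrocyte markers, 8 genes summing to 2269 to 4287 CPM, and dopaminergic neuron markers, 8 genes summing to 255 to 366 CPM, and none of these genes was at 0 in all libraries. In the Cre+ MPTP group, 8 striated muscle genes summed to 7081 CPM in replicate 4 and to 22.0 to 76.9 CPM in replicates 1 to 3. In Cre+ Saline, 6 pituitary genes summed to 611 CPM in replicate 1 and to 449 CPM in replicate 3, against 24.2 CPM in replicate 2. The part of such foreign tissue in the results below was not tested.

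The Cre- MPTP replicate 1 library stood apart and touches every result on MPTP in Cre- mice. It had the lowest total, and 48.7% of its genes differed by more than 1 on the log2 scale from the mean of the other Cre- MPTP libraries. The same measure was 2.67% to 6.19% in the libraries of the other 3 groups. In Cre- MPTP replicates 2 and 3, whose reference includes replicate 1, it was 19.5% and 16.0%. Each of the 4 genes took its most extreme value of all 13 libraries in replicate 1. Maoa had 11.8 CPM in it and 48.6 to 69.4 CPM in the other 12 libraries. Maob had 16.9 CPM against 35.6 to 56.1 CPM. Slc22a3 had 6.18 CPM against 3.03 to 5.49 CPM, and Slc29a4 had 71.9 CPM against 24.5 to 37.1 CPM. So the enzymes stood lowest and the transporters highest in this 1 library. Its deviations went with base composition: over 19294 genes with a transcript sequence, Pearson's r between the GC content of the longest transcript and the library's log2 difference from its group was 0.56, as a description across genes, which are not independent replicates. In the libraries of the other 3 groups the same r ran from -0.18 to 0.21. In Cre- MPTP replicates 2 and 3 it was -0.53 and -0.48. Replicate 1 is part of the reference for both, so this measure cannot by itself place the trend in 1 library. The median difference of replicate 1 was -1.10 in the fifth of genes with the lowest GC content and 1.24 in the fifth with the highest. The 4 genes stood in the same order: Maoa with 40.4% GC differed by -2.07, Maob with 45.3% GC by -1.13, Slc22a3 with 50.1% GC by 0.65 and Slc29a4 with 60.1% GC by 1.47. Among the 1097 genes within 1 percentage point of the GC content of Maoa, the median difference was -1.13 and 13.2% lay below Maoa. Among the 1881 genes as near to Maob the median was -0.74, and among the 705 near Slc29a4 it was 1.61. Slc22a3 went against its neighbours, since the median of the 2048 genes near it was -0.35 and 78.9% of them lay below it. Astrocyte markers summed to 2269 CPM in this library and to at least 3512 CPM in each of the others. Pan-neuronal markers summed to 2618 CPM against at least 3611 CPM. Single markers went both ways. Gja1, Slc1a2, Slc1a3, Aqp4 and Aldoc, and the neuronal Snap25, Syt1, Stmn2 and Nefl, were the lowest of the 13 here. Aldh1l1 (160 CPM), Sox9 (128 CPM) and the neuronal Rbfox3 (384 CPM) were the highest. Endothelial markers summed to 420 CPM in this library against at most 325 CPM in the others, and ependymal markers to 93.0 against at most 44.7 CPM. Single genes of these sums went both ways too. The endothelial Cldn5 (298 CPM) and the ependymal Foxj1 (79.4 CPM) were the highest of the 13 here. The endothelial Pecam1, Flt1 and Kdr and the ependymal Dnah11 and Tmem212 were the lowest. What part base composition, depth or cell content has in the values of this library was not tested. Many of the results below are therefore given both with this library and without it.

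**Figure D1:**
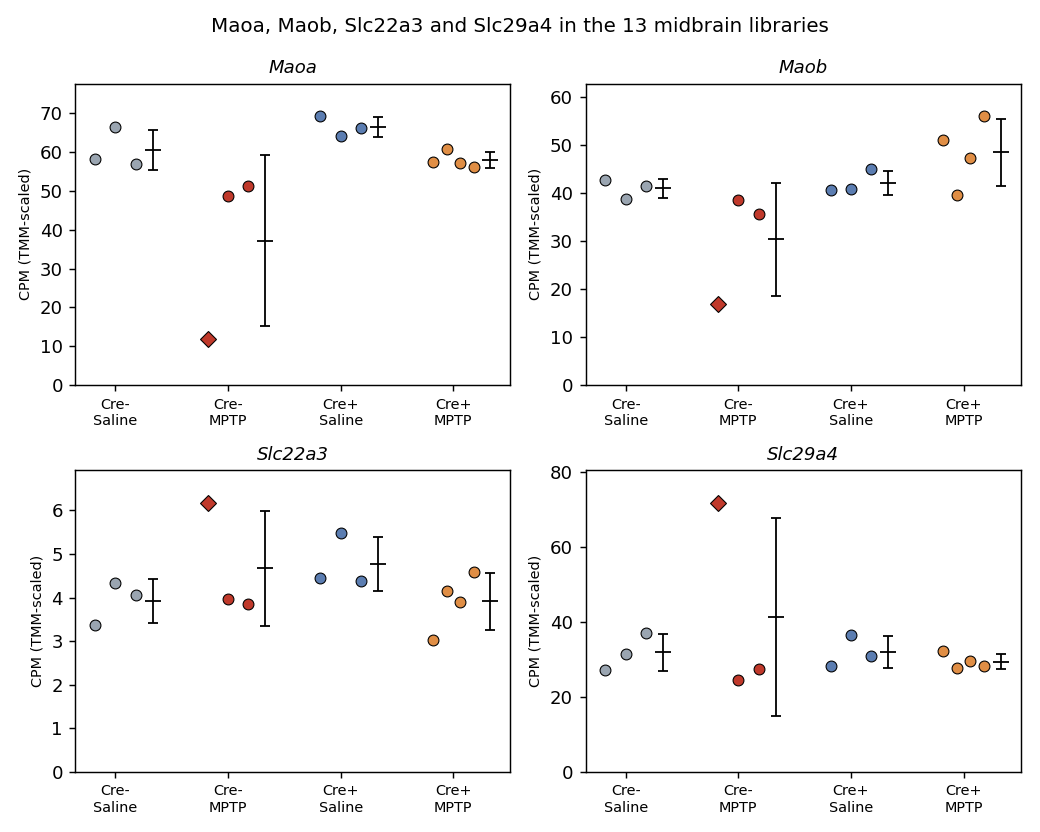
Normalised level (CPM, y axis from 0) of Maoa, Maob, Slc22a3 and Slc29a4 in the 13 midbrain libraries by group (x axis), with 1 point per mouse and the group mean ± SD beside the points. The diamond is Cre- MPTP replicate 1, which holds the lowest Maoa and Maob and the highest Slc22a3 and Slc29a4.

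Per kilobase of exon, a scale on which genes can be compared, Maob and Maoa were near each other, Slc29a4 somewhat lower and Slc22a3 far lower. The median over 13 libraries was 14.6 CPM per kilobase for Maob, 13.8 for Maoa, 10.3 for Slc29a4 and 1.18 for Slc22a3. Maob was above Maoa in 9 of 13 libraries, so their order was not separated by the spread between libraries. That order also depends on the lengths used, 2789 exon bases for Maob and 4167 for Maoa. The longest Maob transcript has 2411 bases. Both enzymes were above Slc29a4 in 12 of 13 libraries, the exception being Cre- MPTP replicate 1. Slc29a4 was above Slc22a3 in 13 of 13. On this scale Maob exceeded 80.9% of the genes tested and Slc22a3 exceeded 30.6%. The dopamine transporter Slc6a3 had a median of 13.98 CPM per kilobase, the vesicular transporter Slc18a2 22.4 and tyrosine hydroxylase (Th) 17.9. The related organic cation transporter OCT2 (Slc22a2) had a median of 0.210 CPM per kilobase. Bulk values cannot tell apart fewer cells of a type from less RNA per cell.

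**Figure D2:**
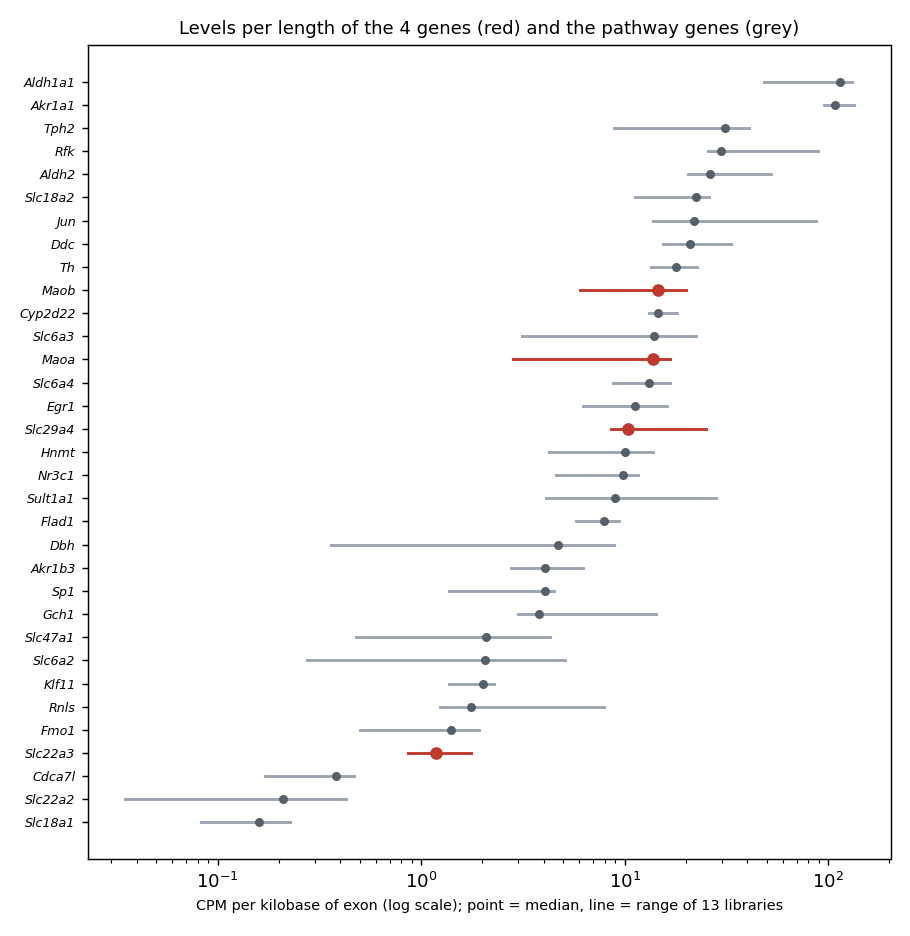
Level per length (CPM per kilobase of exon, log x axis) of the 4 genes (red) and of tested genes of the pathway lists (grey, 1 not shown), with the median as a point and the range over 13 libraries as a line. Maob, Maoa and Slc29a4 lie between 10.3 and 14.6, and Slc22a3 lies at 1.18.

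With MPTP in Cre- mice, neither oxidase and neither transporter passed the test. Of the 19360 genes tested, 3.18% were called in this comparison at an adjusted p under 0.05 and 15.1% had groups that did not overlap. The 4 genes gave 0 calls with edgeR, 0 at an unadjusted p under 0.05, 0 with DESeq2 and 1 with limma voom. Groups did not overlap for Maoa and Maob. Maob, the enzyme that activates MPTP, had 42.7, 38.9 and 41.4 CPM in Cre- Saline replicates 1 to 3 and 16.9, 38.5 and 35.6 CPM in Cre- MPTP. All 3 MPTP libraries were below all 3 Saline libraries, replicate 2 by a narrow margin. For Maob this gave a log2 fold change of -0.43 (SE 0.244, 95% interval -0.96 to 0.10, adjusted p = 0.414 in edgeR), and without Cre- MPTP replicate 1 it was -0.14 (SE 0.124, adjusted p = 0.524 in edgeR). Maoa had 58.1, 66.5 and 57.0 CPM in Cre- Saline and 11.8, 48.6 and 51.2 CPM in Cre- MPTP. Here too every MPTP library was below every Saline library. For Maoa it was -0.69 on the same scale (SE 0.365, 95% interval -1.49 to 0.10, adjusted p = 0.382 in edgeR). Without Cre- MPTP replicate 1 it was -0.28 (SE 0.0842, adjusted p = 0.0585 in edgeR), a smaller difference with a smaller error that still missed the threshold. limma voom with sample quality weights, which gives a deviating library less weight, put it at -0.37 and past the threshold (adjusted p = 0.0185).

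The transporters did not separate the groups in Cre- mice. OCT3 (Slc22a3) had 3.37, 4.34 and 4.05 CPM in Cre- Saline and 6.18, 3.96 and 3.86 CPM in Cre- MPTP. Replicates 2 and 3 lay within the Saline range. MPTP over Saline came to 0.23 on the log2 scale (SE 0.240, adjusted p = 0.654 in edgeR) and 0.00 without Cre- MPTP replicate 1. PMAT (Slc29a4) had 27.3, 31.4 and 37.1 CPM in Cre- Saline and 71.9, 24.5 and 27.5 CPM in Cre- MPTP. Replicate 1 was above every Saline library while replicate 2 was below them all. The direction of its log2 fold change turned with that library, from 0.36 (SE 0.325, adjusted p = 0.599 in edgeR) to -0.29 (SE 0.137, adjusted p = 0.214 in edgeR) without it. It was also negative, -0.12, when each library's trend on GC content was removed, an alternative chosen after seeing the data.

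**Figure D3:**
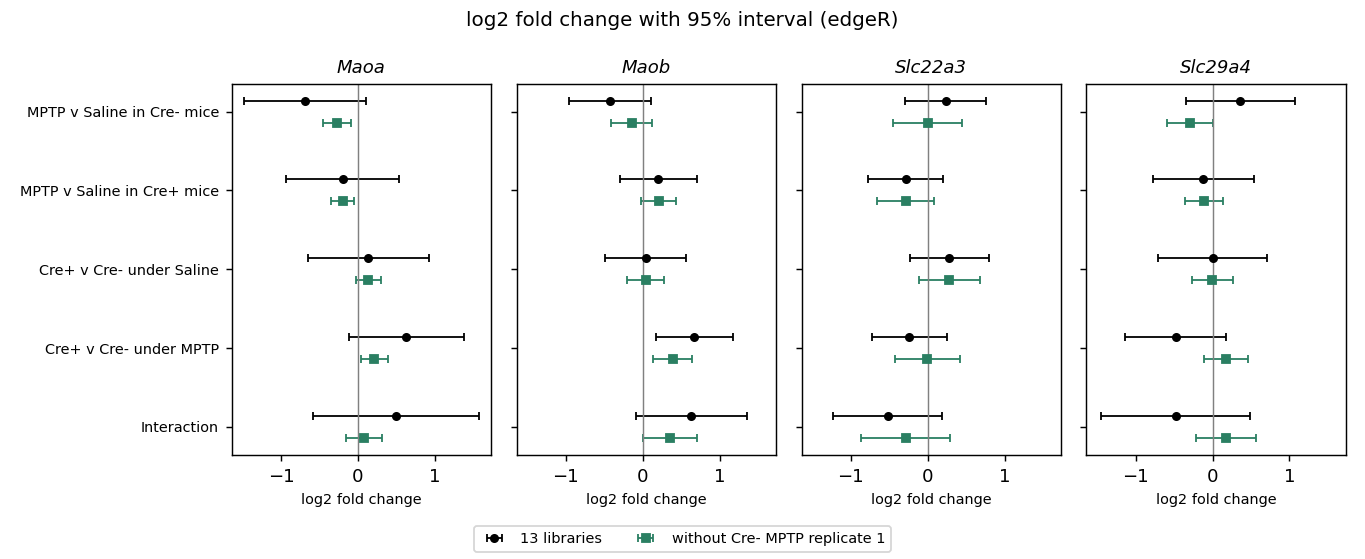
log2 fold change (x axis) with its 95% interval for the 4 genes in the 5 comparisons (y axis), from edgeR on 13 libraries (black circles) and without Cre- MPTP replicate 1 (green squares). The difference of Slc29a4 with MPTP in Cre- mice lies at 0.36 with that library and at -0.29 without it, and the intervals of Maoa narrow.

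With MPTP in Cre+ mice, the differences of the 4 genes were small against their errors. Called genes made up 0% of the genes tested, with 672 at an unadjusted p under 0.05, 83 called by DESeq2 and 294 by limma voom, and 9.66% of genes had groups that did not overlap. Among the 4 genes, edgeR, DESeq2 and limma voom each called 0 and 0 had an unadjusted p under 0.05. Maoa had 69.4, 64.1 and 66.2 CPM in Cre+ Saline and 57.5, 60.9, 57.2 and 56.2 CPM in Cre+ MPTP. The groups did not overlap, with the 4 MPTP libraries below the 3 Saline libraries, as in Cre- mice. The log2 fold change was -0.20 (SE 0.338, 95% interval -0.93 to 0.54, adjusted p = 1.00 in edgeR). The SE is pooled over the 4 groups and so takes in the spread of Cre- MPTP, and without Cre- MPTP replicate 1 it was 0.0698 for the same difference of -0.20 (adjusted p = 0.417 in edgeR). Maob had 40.7, 40.8 and 44.9 CPM in Cre+ Saline and 51.1, 39.6, 47.3 and 56.1 CPM in Cre+ MPTP. Replicates 1, 3 and 4 of the MPTP group were above the Saline libraries and replicate 2 was below them. For Maob the log2 fold change was 0.20 (SE 0.228, adjusted p = 1.00 in edgeR), the opposite sign to that in Cre- mice.

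Slc22a3 had 4.46, 5.49 and 4.38 CPM in Cre+ Saline and 3.03, 4.14, 3.90 and 4.58 CPM in Cre+ MPTP. Replicate 4, the library with muscle RNA, was the one that overlapped the Saline libraries. The log2 fold change was -0.29 (SE 0.222, adjusted p = 1.00 in edgeR). Slc29a4 had 28.2, 36.7 and 30.9 CPM in Cre+ Saline and 32.3, 27.6, 29.6 and 28.1 CPM in Cre+ MPTP. These groups overlapped, and the log2 fold change was -0.12 (SE 0.303, adjusted p = 1.00 in edgeR).

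Without toxin, none of the 4 genes differed between the genotypes beyond the error of the test. Called genes again made up 0% of all tested, with 176 at an unadjusted p under 0.05, 2 called by DESeq2 and 3 by limma voom, and groups did not overlap for 11.6%. The 4 genes gave 0 calls by any of the 3 tools and 0 at an unadjusted p under 0.05. The log2 fold change of Cre+ over Cre- under Saline was 0.14 (95% interval -0.65 to 0.92) for Maoa, 0.04 (-0.49 to 0.57) for Maob and 0.00 (-0.70 to 0.70) for Slc29a4. For Slc22a3 the 3 Cre+ libraries, at 4.38 to 5.49 CPM, were above the 3 Cre- libraries, at 3.37 to 4.34 CPM, with a log2 fold change of 0.28 (SE 0.238, 95% interval -0.23 to 0.80, adjusted p = 1.00 in edgeR). The intervals were narrower without Cre- MPTP replicate 1, at -0.20 to 0.28 for Maob and -0.03 to 0.30 for Maoa.

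After MPTP, both oxidases were higher in every Cre+ library than in every Cre- library, and neither passed the test. In this comparison 1.54% of all genes were called and groups did not overlap for 11.3%. Of the 4 genes, edgeR and DESeq2 called 0, limma voom called 1, and 1 had an unadjusted p under 0.05. That gene was Maob, with 16.9, 38.5 and 35.6 CPM in Cre- MPTP and 39.6 to 56.1 CPM in Cre+ MPTP. The nearest libraries of the groups, Cre- replicate 2 and Cre+ replicate 2, were 38.5 and 39.6 CPM. Cre+ over Cre- came to 0.67 on the log2 scale (SE 0.231, 95% interval 0.17 to 1.17, unadjusted p = 0.0129, adjusted p = 0.192 in edgeR). Without Cre- MPTP replicate 1 it was 0.39 (SE 0.119, 95% interval 0.13 to 0.64, adjusted p = 0.124 in edgeR). Leaving out Cre+ MPTP replicate 4 as well, the library with muscle RNA and the highest Maob, gave 0.31 (SE 0.11, adjusted p = 0.225 in edgeR). limma voom gave 0.42 and an adjusted p of 0.0178. Astrocyte markers summed to 3775 to 4074 CPM in Cre+ MPTP and to 4137 and 4287 CPM in Cre- MPTP replicates 2 and 3, with 2269 CPM in replicate 1, the library with the lowest Maob. In that library single astrocyte markers went both ways, as given above. Markers of serotonergic neurons, 3 genes, summed to 84.4, 136.7 and 126 CPM in Cre- MPTP and to 137.3 to 166 CPM in Cre+ MPTP, a narrow gap. They summed to 147 to 187 CPM in Cre- Saline and to 156 to 199 CPM in Cre+ Saline. Single genes overlapped: Tph2 reached 80.8 CPM and Slc6a4 54.0 CPM in Cre- MPTP, against minima of 73.8 and 51.5 CPM in Cre+ MPTP. Fev was the highest of the 13 in Cre- MPTP replicate 1, at 19.1 CPM. From Cre+ Saline to Cre+ MPTP the range of the sums went down with overlap. The mean of Maob went from 42.1 to 48.5 CPM, a difference that edgeR did not call. The part of either cell type in the Maob values was not tested.

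Maoa had a log2 fold change of 0.63 between the MPTP-treated genotypes (SE 0.345, 95% interval -0.12 to 1.38, adjusted p = 0.334 in edgeR) and of 0.21 without Cre- MPTP replicate 1 (SE 0.0801, adjusted p = 0.254 in edgeR). Slc22a3 had -0.24 (SE 0.225, adjusted p = 0.545 in edgeR) and 0.00 without that library. Slc29a4 turned sign again, from -0.48 (SE 0.302, adjusted p = 0.391 in edgeR) to 0.17 (SE 0.131, adjusted p = 0.719 in edgeR).

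The interaction tested whether the response to MPTP differed between the genotypes. It called 0.0103% of all genes, and for the 4 genes it gave 0 calls with edgeR, DESeq2 and limma voom and 0 at an unadjusted p under 0.05. For Maob the difference of the responses was 0.63 (SE 0.333, 95% interval -0.09 to 1.35, adjusted p = 0.795 in edgeR), and 0.35 (SE 0.162, adjusted p = 0.403 in edgeR) without Cre- MPTP replicate 1. For Maoa it was 0.49 (SE 0.498, 95% interval -0.59 to 1.57) and 0.08 without that library. Slc22a3 had -0.52 (SE 0.327) and Slc29a4 -0.48 (SE 0.444), and without that library they had -0.29 and 0.17. The 2 responses share no control libraries, while the 2 comparisons with Cre- MPTP share those 3 libraries.

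The ratio of Maob to Maoa within a library does not depend on how libraries are scaled. Per length it was 1.10, 0.873 and 1.09 in Cre- Saline and 0.876, 0.952 and 1.01 in Cre+ Saline. It was 2.14, 1.19 and 1.04 in Cre- MPTP and 1.33, 0.971, 1.24 and 1.49 in Cre+ MPTP. So with MPTP the ratio was above 1 in 6 of 7 libraries and with saline in 3 of 6, and in each genotype the MPTP and Saline ranges overlapped. Where a ratio of 1 falls depends on the exon lengths used, which shift every library alike. The mean log2 ratio was 0.45 higher with MPTP in Cre- mice (1.36-fold, exact permutation test, two-sided, p = 0.3, adjusted p = 0.600 over the 4 comparisons). It was 0.39 higher in Cre+ mice (1.31-fold, exact permutation test p = 0.114, adjusted p = 0.457). Between genotypes the mean log2 ratio differed by -0.10 under Saline (exact permutation test p = 0.600, adjusted p = 0.686) and by -0.15 under MPTP (exact permutation test p = 0.686, adjusted p = 0.686). Groups of 3 cannot give an exact p under 0.1, nor groups of 4 and 3 one under 0.0571, when the two-sided p is taken as double the smaller tail as here, so this test could not reach 0.05. The value under MPTP was 0.16 without Cre- MPTP replicate 1, whose ratio of 2.14 was the highest of the 13.

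**Figure D4:**
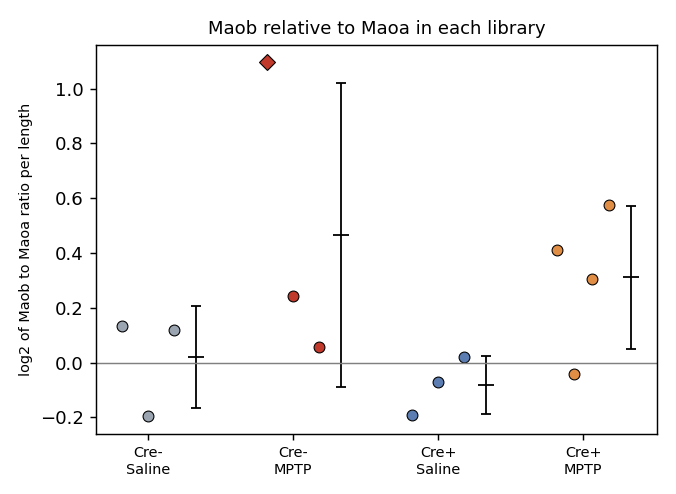
log2 of the Maob to Maoa ratio per length (y axis) in each library by group (x axis), with the group mean ± SD beside the points and a line at equal levels. The diamond is Cre- MPTP replicate 1 at a log2 ratio of 1.10, and each of the other MPTP libraries lies between -0.04 and 0.58.

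Across the 13 libraries Maoa and Maob followed each other with Pearson's r of 0.88 on log2 CPM, and the same r was 0.04 over the 12 libraries without Cre- MPTP replicate 1. Maoa and Slc29a4 had r of -0.84 and, without that library, 0.42. These are descriptions over libraries that share groups and differ in depth, and they turned on 1 library. The genes whose pattern was most like that of Maoa were Sort1, Rnf13 and Gm6145, with r of 0.99 each over 13 libraries. For Maob they were Gm37254, Imp4 and Rmnd1, with r of 0.97 to 0.98. For Slc22a3 they were Cdkn2b, Ltb4r1 and Dusp1, with r of 0.88 to 0.90, and for Slc29a4 Letm1, Clip2 and Ap5b1, with r of 0.98 to 0.99. Without Cre- MPTP replicate 1, 0 of the 3 genes named for Maoa stayed among the 3 most like it and 1 of 3 did for each of the others, with r of 0.81 to 0.89 for the 3 Maoa genes.

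The genes around the oxidases were taken as 3 lists of 32 genes in all, for MPTP and MPP+ handling, for monoamine synthesis, storage, reuptake and breakdown, and for the cofactor and regulators of monoamine oxidase. Of these, 30 had enough counts to be tested. With MPTP in Cre- mice 1 rose and 1 fell, where 3.18% of all genes were called, and 7 had an unadjusted p under 0.05, as did 15% of all genes. Of the 30, 13 had positive and 17 negative log2 fold changes, with a median of -0.16 against 0.03 over all genes tested. With MPTP in Cre+ mice 0 were called by edgeR, with 1 at an unadjusted p under 0.05, 0 called by DESeq2 and 3 by limma voom, and the median was -0.07. Between the genotypes 0 were called under Saline by edgeR, DESeq2 or limma voom, with 0 at an unadjusted p under 0.05. Under MPTP 1 was higher in Cre+ mice, where 1.54% of all genes were called, with 8 at an unadjusted p under 0.05, as had 19% of all genes. The interaction called 0, with 3 at an unadjusted p under 0.05, 0 by DESeq2 and 2 by limma voom.

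In the list for MPTP and MPP+ handling, Slc47a1 fell. It encodes MATE1, a proton-coupled exporter of organic cations, MPP+ among them. It had 5.99, 10.4 and 11.3 CPM in Cre- Saline and 1.63, 1.70 and 1.88 CPM in Cre- MPTP, so that all 3 MPTP libraries, replicate 1 included, lay close together and below the Saline libraries. The log2 fold change was -2.40 (SE 0.449, adjusted p = 0.0100 in edgeR), and -2.35 (adjusted p = 0.00914 in edgeR) without Cre- MPTP replicate 1. In Cre+ mice it had 14.6, 7.85 and 13.7 CPM with saline and 3.95, 7.05, 4.04 and 12.3 CPM with MPTP, a log2 fold change of -0.82 (SE 0.381, adjusted p = 1.00 in edgeR) with overlapping groups. Replicate 4, the library with muscle RNA, was the one that overlapped the Saline libraries, and without it the value was -1.27 (adjusted p = 0.723 in edgeR). limma voom called the fall of Slc47a1 in Cre+ mice (-1.20, adjusted p = 0.0407), while DESeq2 and the edgeR fits did not. Between the MPTP-treated genotypes it was higher in Cre+ mice by 1.96 on the log2 scale (SE 0.429, adjusted p = 0.0429 in edgeR), and every Cre+ library was above every Cre- library. The interaction was 1.58 (SE 0.584, adjusted p = 0.690 in edgeR), so a difference of the responses was not shown. The call between genotypes was a marginal one. It held when Cre- MPTP replicate 1 or 2 was left out and was lost when any of the other 11 libraries was left out, with edgeR adjusted p of 0.0427 to 0.0821 and log2 fold changes of 1.51 to 2.15 over the 13 fits. It was also lost with limma voom (adjusted p = 0.0805), when only the groups compared were fitted (adjusted p = 0.298 in edgeR), under the replicate block (1.52, adjusted p = 0.150 in edgeR) and without both Cre- MPTP replicate 1 and Cre+ MPTP replicate 4 (1.46, adjusted p = 0.0525 in edgeR). The fall with MPTP in Cre- mice was called in 13 of 13 such leave-one-out fits. Over the libraries, mural markers summed to 69.9 to 152 CPM in Cre- MPTP and to 155 to 230 CPM in Cre+ MPTP, and to 176 to 202 CPM in Cre- Saline. Meningeal fibroblast markers summed to 170 to 207 CPM in Cre- MPTP and to 201 to 246 CPM in Cre- Saline, with 127 to 224 CPM in Cre+ MPTP. Single genes of both sums went both ways with MPTP in Cre- mice. Of the meningeal genes, the log2 fold change was 1.52 for Dcn and 0.09 for Col1a1. It was -1.40 for Igf2, -0.98 for Lum, -0.85 for Slc6a13 and -0.10 for Col1a2. Of the mural genes, it was 0.66 for Kcnj8. It was -1.24 for Acta2, -1.02 for Rgs5, -0.93 for Myh11, -0.85 for Tagln and -0.20 for Pdgfrb. The part of either cell type in the fall of Slc47a1 was not tested.

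The carriers that bring MPP+ or dopamine into neurons and vesicles did not pass the test. Slc6a3, the dopamine transporter, had 44.6, 48.3 and 77.4 CPM in Cre- Saline and 10.8, 49.6 and 55.5 CPM in Cre- MPTP. With MPTP it stood at -0.54 on the log2 scale (SE 0.435, adjusted p = 0.552 in edgeR) and -0.11 without Cre- MPTP replicate 1. Slc18a2, which packs monoamines and MPP+ into vesicles, had -0.18 (SE 0.232, adjusted p = 0.730 in edgeR) and 0.09 without that library. In Cre+ mice the log2 fold change with MPTP was 0.04 for Slc6a3 and -0.10 for Slc18a2. The deviating library held the lowest Slc6a3 value of all 13.

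In the list for synthesis, reuptake and breakdown, Sult1a1 rose. It encodes a phenol sulfotransferase. It had 7.30, 7.34 and 9.82 CPM in Cre- Saline and 13.6, 36.8 and 42.4 CPM in Cre- MPTP, with no overlap. The log2 fold change was 1.93 (SE 0.361, adjusted p = 0.0100 in edgeR), and 2.28 (SE 0.22, adjusted p = 4.98e-05 in edgeR) without Cre- MPTP replicate 1, the lowest of the 3. The call was lost without Cre- Saline replicate 1 (1.86, adjusted p = 0.0617 in edgeR), without Cre- Saline replicate 2 (1.86, adjusted p = 0.0715 in edgeR) and when only the groups compared were fitted (adjusted p = 0.166 in edgeR). In Cre+ mice the groups did not overlap either, at 6.18 to 10.6 CPM with saline and 14.02 to 20.3 CPM with MPTP, and the log2 fold change of 1.09 missed the threshold (SE 0.337, adjusted p = 0.901 in edgeR). Without Cre- MPTP replicate 1 the same 1.09 passed it (SE 0.193, adjusted p = 0.0492 in edgeR), and without Cre+ MPTP replicate 4 as well the value of 1.01 did not (adjusted p = 0.0651 in edgeR). Under MPTP, Cre+ over Cre- came to -0.83 for Sult1a1 (adjusted p = 0.210 in edgeR, 0.124 in DESeq2). It was -1.19 without Cre- MPTP replicate 1 (adjusted p = 0.00514 in edgeR) and -1.27 without Cre+ MPTP replicate 4 as well (adjusted p = 0.00392 in edgeR). limma voom called this difference (-1.16, adjusted p = 1.24e-04) and the rise in Cre+ mice (1.15, adjusted p = 0.003965). The interaction was -0.84 (adjusted p = 0.795 in edgeR). It passed with limma voom (-1.22, adjusted p = 0.0114) and without both libraries (-1.28, adjusted p = 0.04997 in edgeR). Th, the rate-limiting enzyme of dopamine synthesis, had a difference with MPTP of 0.10 on the log2 scale in Cre- mice (SE 0.196, adjusted p = 0.837 in edgeR) and of -0.05 in Cre+ mice (SE 0.183). Ddc, which makes dopamine from L-DOPA, had 85.2 to 96.5 CPM in Cre- Saline and 69.2, 124 and 149 CPM in Cre- MPTP, with a log2 fold change of 0.33 that missed the threshold (adjusted p = 0.456 in edgeR). It passed without Cre- MPTP replicate 1 (0.60, adjusted p = 0.0013 in edgeR), without that library and Cre+ MPTP replicate 4 (0.61) and with limma voom (0.54). Between the MPTP-treated genotypes, Ddc was called in 1 of 13 leave-one-out fits. There the log2 fold changes ran from -0.50 to 0.01, with edgeR adjusted p of 0.00738 to 0.975. Ddc was named after its values were seen.

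The list of 8 cofactor and regulator genes had 3 positive and 5 negative log2 fold changes with MPTP in Cre- mice, with a median of -0.17. Nr3c1, the glucocorticoid receptor, named here after its values were seen, had -0.52 (SE 0.175, adjusted p = 0.185 in edgeR). It passed the test at -0.31 (adjusted p = 0.0348 in edgeR) without Cre- MPTP replicate 1, but not without Cre+ MPTP replicate 4 as well (-0.30, adjusted p = 0.0516 in edgeR). Between the MPTP-treated genotypes, Nr3c1 was called in 2 of 13 leave-one-out fits. There the log2 fold changes ran from 0.35 to 0.68, with edgeR adjusted p of 0.0301 to 0.301.

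**Figure D5:**
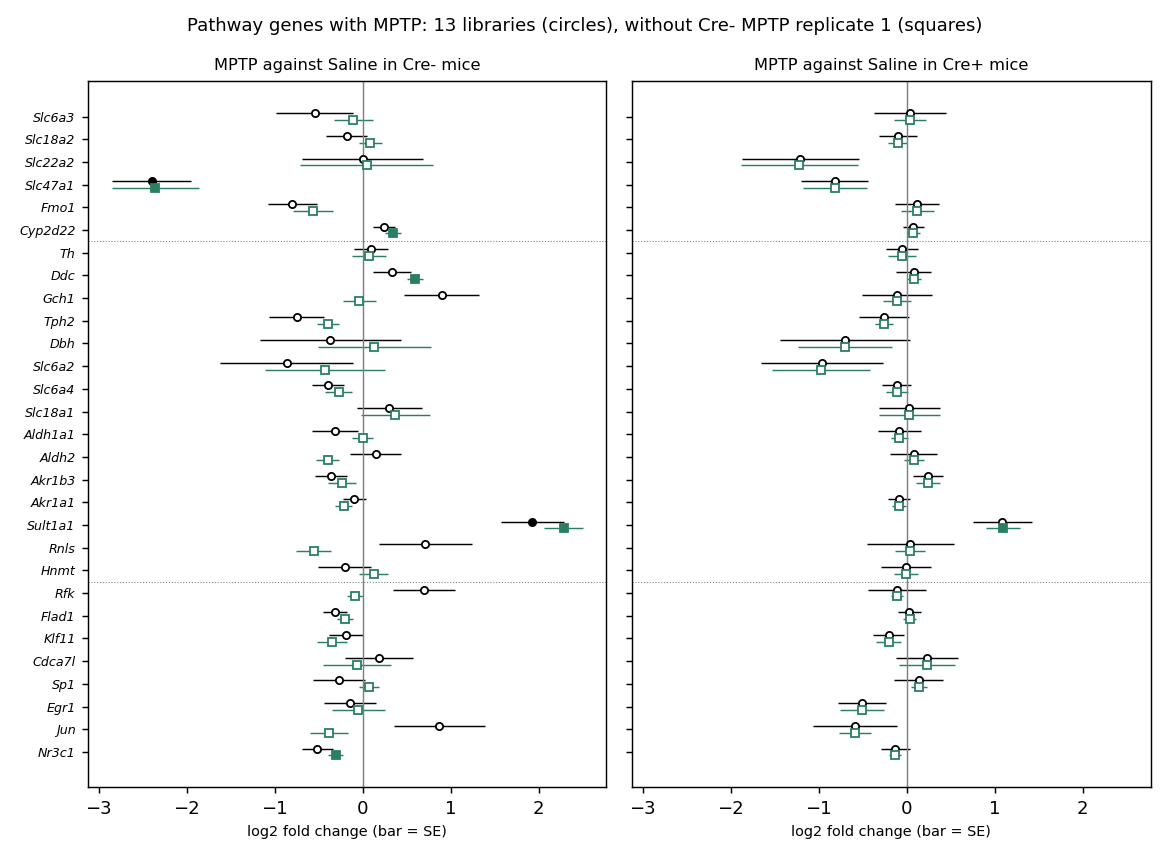
log2 fold change with its SE (x axis) of tested genes of the 3 lists (y axis, lists parted by dotted lines, 1 gene not shown) with MPTP in Cre- mice (left) and in Cre+ mice (right), over 13 libraries (circles) and without Cre- MPTP replicate 1 (squares), filled where the adjusted p was under 0.05. Slc47a1 at -2.40 and Sult1a1 at 1.93 are the filled circles on the left, and no circle is filled on the right.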

How the data were processed

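Midbrain RNA from 13 mice was sequenced from stranded total RNA libraries. Per the labels, the authors used Trimmomatic 0.36 for trimming, STAR 2.5.2b for alignment (build GRCm38) and featureCounts of Subread 1.5.2 for counting. The deposited values are raw counts per gene, 11489150 to 29397278 per library. The strand setting of the counting is not given in the sources used here. Genes and lists were chosen with earlier results of these data known. Symbols were matched for 48970 of 49315 genes. Counts were tested with edgeR 4.0.16 in R 4.3.3 (TMM, at least 10 counts in at least 3 libraries, 1 term per group over 13 libraries, quasi-likelihood test, Benjamini-Hochberg adjustment over 19360 genes, threshold 0.05), after tests on simulated data. Each replicate is 1 mouse, and intervals are 95%. CPM used TMM library sizes, and levels were divided by exon length. The Maob to Maoa ratio was tested by exact permutation. Alternatives were DESeq2 1.42.0, limma 3.58.1 voom, other scalings, filters and sample sets, a replicate block, and, chosen after seeing the data, removal of each library's GC trend. Named genes were the 4 genes, list genes called in any comparison, Slc6a3, Slc18a2 and Th, and the 3 genes most correlated with each of the 4. Slc22a2, Ddc, Nr3c1 and single marker genes were named in addition, after their values were seen. Some list genes are not reported here by name.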

Additional observations from a re-analysis of the deposited data

Results flagged for a closer look

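In the Cre+ MPTP group of 4, the summed level of 8 striated muscle genes was 7081 CPM in replicate 4 and 22.0 to 76.9 CPM in the other 3 libraries, a gap of 0.992 of the group's range. It was the only 1 of 22 measures looked at that stood out in this way. About 1 in 20 groups of 4 normally distributed values does so by chance, a rate that need not hold for CPM sums. The same library held the highest Maob of the 13, at 56.1 CPM, and the part of the muscle RNA in that value was not tested.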

How the results depend on the processing

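Of 456 alternative values of the 4 genes over 5 comparisons, 432 kept their direction and side of the threshold, 2 passed the threshold and 22 reversed. The cause was not tested. Comparisons are given in the order MPTP in Cre-, MPTP in Cre+, genotype under Saline, genotype under MPTP and interaction. All genes called were 1137, 83, 2, 834 and 223 with DESeq2, which called 3 list genes between genotypes under MPTP. They were 2624, 294, 3, 1224 and 689 with voom, which called 8, 3, 0, 4 and 2 list genes, 1 of the 4 genes with MPTP in Cre- mice (Maoa, -0.37) and 1 between genotypes under MPTP (Maob, 0.42). Voom reversed Slc22a3 (-0.10) and Slc29a4 (-0.27) with MPTP in Cre- mice, and Slc29a4 under Saline (-0.015), between genotypes under MPTP (0.19) and in the interaction (0.20). Fits of the groups compared gave 110, 15, 6 and 0 genes, with 1 list gene with MPTP in Cre- and 0 between genotypes under MPTP. DESeq2 size factors gave 1 in the interaction. A minimum of 1 count gave 9 with MPTP in Cre+ and 10 in the interaction, and a minimum of 50 gave 3 with MPTP in Cre+. Slc29a4 under Saline was -0.00014 with upper quartile factors and -0.0026 with a minimum of 1 count.

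The replicate block gave 428, 0, 0, 0 and 0 genes and 0 list genes between genotypes under MPTP. Libraries of different groups with the same replicate number had r of -0.18 to 0.18 over 18 pairs, 3 of them over 0.1. These are correlations of differences from the group mean. Without a reference for paired samples they cannot exclude a pairing. The block changed no call of the 4 genes. With each library's GC trend removed, all genes called were 911, 4, 0, 461 and 37, Slc29a4 was -0.12 with MPTP in Cre-, 0.16 between genotypes under MPTP and 0.040 in the interaction, and Maob under Saline was -0.0067. Without Cre- MPTP replicate 1 and Cre+ MPTP replicate 4, Slc29a4 was -0.28, 0.19 and 0.19 and list genes were 5, 2 and 1 with MPTP in Cre-, between genotypes under MPTP and in the interaction. All genes were 1923, 557 and 220 there and 38 with MPTP in Cre+.

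Leaving out 1 library in turn gave 311 to 1812, 0 to 32, 0, 41 to 1826 and 0 to 199 genes, and 1 to 5, 0 to 1 and 0 to 5 list genes with MPTP in Cre-, with MPTP in Cre+ and between genotypes under MPTP. Slc29a4 ranged from -0.29 to 0.61, from -0.11 to 0.13 under Saline, and from -0.73 to 0.17 under MPTP and in the interaction, and Maob under Saline from -0.0075 to 0.073. The log2 ratio of Maob to Maoa between genotypes under MPTP was 0.11 by medians and ranged from -0.36 to 0.16.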
